A study of Mus musculus with 18 samples.

Results

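At d6 of neural differentiation (ND), mouse embryonic stem cells (mESCs) without Zeb2 were compared with control cells across all 10965 genes of the deposited expression table. The comparison sets 3 libraries from Zeb2 KO against 3 from control (Ctrl) cells, 6 of the 18 of the series, chosen by genotype and day alone. Ctrl cells carry Zeb2 alleles flanked by loxP sites (genotype Zeb2 fl/fl) and KO cells are Zeb2 -/-, and the strain label of both is CD1. Both were taken out of 2i + LIF on d0, grown as embryoid bodies (EBs) in medium with 15% serum, and given N2B27 and 500 nM retinoic acid (RA) from d4 on, so that the d6 cells of either genotype had been in RA medium. The study describes its KO lines as CD1 floxed lines treated with Cre and as separately derived clones of mixed background. The CD1 and fl/fl labels go with the Cre-treated kind. Which of the lines were sequenced is not given in the sources used here, so the features of a line and the loss of Zeb2 cannot be told apart. The 3 libraries of a group are described as independent experiments. Each value is a bulk measurement of a whole EB culture, in which fewer cells of a type and less RNA per cell cannot be told apart.

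Zeb2 encodes a zinc finger transcription factor that binds paired E-box-like motifs of DNA, mostly as a repressor, and is known from epithelial-to-mesenchymal transition (EMT), neural crest and brain development. In EBs, RA drives progenitors to a caudal neural fate: its receptors act on response elements near the Hox genes, and RA also induces the enzymes that degrade it. Pluripotency factors such as Oct4 and Nanog hold stem cells undifferentiated, and the postimplantation epiblast keeps some of them while it turns on genes such as Fgf5, Otx2 and Dnmt3b. Neural induction requires leaving that state.

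The libraries held 9699948 to 13352397 reads on the listed genes. Replicates differed by more than sampling noise, with a chi-square per gene of 4.85 to 8.17 between Ctrl libraries and of 9.44 to 24.2 between KO libraries. KO library 1 stood farthest from the others, at 13.9 from KO library 2 and 24.2 from KO library 3, while libraries 2 and 3 were 9.44 apart. Zeb2 (chr2:44983632-45117395, GRCm38, minus strand) stood at 7.81, 7.53 and 7.65 TPM (read counts scaled by gene length and library size) in Ctrl, against 0.717, 0.594 and 0.733 TPM in KO. No KO library reached the level of a Ctrl library (log2 fold change -2.37 ± 0.12, SE, adjusted p = 6.98e-11). Fold changes here and below are KO over Ctrl on log2(TPM + 1), a scale that understates the change of genes with low values. The adjusted p is that of limma's moderated test over all genes with Benjamini-Hochberg correction. The fit held all 18 libraries, so each SE and p rests on a spread shared with d0 and d4. In a fit to the libraries of d6 alone, the adjusted p of Zeb2 was 2.30e-05.

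More genes were lower than higher in KO on the scale of the deposited values. At an unadjusted p below 0.01 and more than 1 log2 unit, 1207 genes (11.0% of those tested) were lower and 511 genes (4.66%) were higher, and these are called DEGs. At an adjusted p below 0.01 without a limit on size, 3764 genes (34.3%) were lower and 1967 (17.9%) were higher. A single gene is called changed below when it met this second threshold. In a fit to the libraries of d6 alone, 3063 genes were called lower and 1470 higher. At 4503 genes (41.1%) all 3 KO values were below all 3 Ctrl values, and at 2487 (22.7%) they were above. The lower DEGs went from a median of 21.5 TPM in Ctrl to 5.37 TPM in KO, and 146 of them had a KO mean under 1 TPM. The higher DEGs went from a median of 8.66 TPM to 27.7 TPM, and 22 of them had a Ctrl mean under 1 TPM. Differences past 4 log2 units were found at 71 lower and 5 higher genes. By annotation, 1134 of the lower and 447 of the higher DEGs were protein-coding. The direction of the balance depended on scaling: the median of all 10965 log2 fold changes was -0.14, and once libraries were brought to a common median ratio, which moved that median to 0.01, there were 934 lower and 679 higher DEGs. Without KO library 1, on the deposited scale, there were 1235 lower and 498 higher DEGs. Under quantile scaling the order of the counts turned, to 848 lower and 946 higher. The gene groups below are therefore read against the median of -0.14.

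Among the 12 genes with the largest decrease were regulators of the hindbrain and spinal cord and genes of the RA response. Dbx1, a homeobox gene of interneuron progenitors in the hindbrain and spinal cord (chr7:49631499-49636849), was at 417, 351 and 379.8 TPM in Ctrl and 0.452, 0.274 and 0.4299 TPM in KO. Its KO libraries were near the detection limit and its log2 fold change was -8.11 ± 0.20 (adjusted p = 1.55e-14). Sst, which encodes the neuropeptide somatostatin, was at 193, 212 and 183 TPM in Ctrl. No read of Sst was counted in any KO library, so that it was at least 130-fold lower there, against a floor of 3 reads per library. Stra8, an RA-induced gene known for entry into meiosis (chr6:34920163-34939344), was at 684, 789 and 728 TPM in Ctrl and 7.17, 5.77 and 5.37 TPM in KO, 120.2-fold lower on the means (log2 fold change -6.70 ± 0.15, adjusted p = 6.44e-15). Crabp1, a cytoplasmic RA-binding protein (chr9:54764748-54773110), had the highest level of these 12, at 3292, 3751 and 2846 TPM in Ctrl and 31.4, 37.5 and 37.7 TPM in KO. The groups were far apart in every library (92.7-fold, log2 fold change -6.49 ± 0.13). Meox1, a homeobox gene of somites, Nr2f1, a nuclear receptor of the developing nervous system, Ednrb, an endothelin receptor, and Hoxb1, Hoxb4, Hoxb5, Hoxb8 and Hoxd3 made up the rest, with log2 fold changes of -6.47 to -5.94.

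The 12 genes with the largest increase were led by Fgf5, a growth factor gene of the epiblast (chr5:98254184-98277030). It was at 3.35, 2.58 and 1.404 TPM in Ctrl and 87.1, 94.9 and 115 TPM in KO. Every KO library was far above every Ctrl library (log2 fold change 4.89 ± 0.21, adjusted p = 1.13e-11). Trh, which encodes thyrotropin-releasing hormone (chr6:92242061-92244650), was at 60.6, 56.3 and 55.2 TPM in Ctrl and 1204, 1315 and 1611 TPM in KO (log2 fold change 4.55 ± 0.20, adjusted p = 1.77e-11). Tdgf1, the Nodal coreceptor Cripto, was at 28.4, 21.05 and 25.7 TPM in Ctrl and 519, 291 and 312 TPM in KO (log2 fold change 3.81 ± 0.16, adjusted p = 1.07e-11). KO library 1 was the highest of the 3 there, and all 3 were above Ctrl. Its near-identical copy Tdgf1-ps1 had a log2 fold change of 3.79, but reads may be split between the pair and both values are uncertain for that reason. The homeobox gene Otx2 of the anterior epiblast and brain and the forkhead gene Foxd3 were also among the 12, at 4.00 and 3.50 log2 units. Vrtn, Cbr3, Enpp2, Glyatl3 and Dok2 were among them too, at 3.45 to 4.31 log2 units. By their mean over the 6 libraries of d6, the higher DEGs with the highest level were Utf1 and Dppa5a, 2 genes of undifferentiated stem cells, Bst2, Txnrd1 and Gsta4. Gsta4, a glutathione transferase, was at 625, 584 and 555 TPM in Ctrl and 1209, 1178 and 1283 TPM in KO, and Txnrd1, a thioredoxin reductase, was at 661, 663 and 712 TPM in Ctrl and 1318, 1444 and 1589 TPM in KO. Both were higher in all 3 KO libraries.

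**Figure D1:**
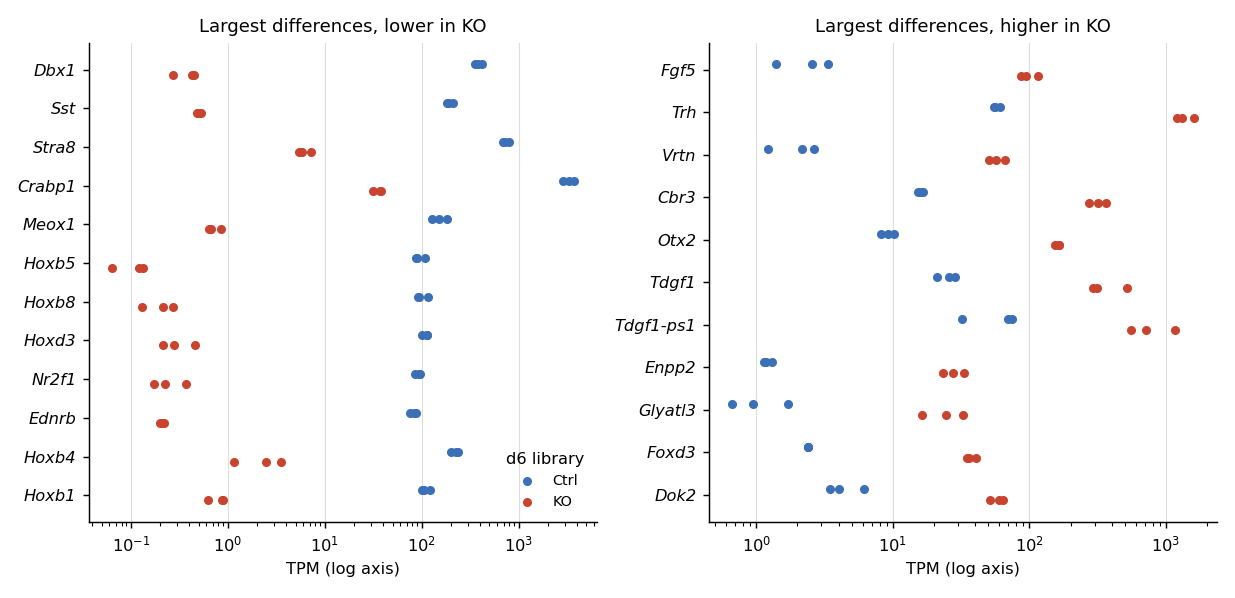
TPM in each of the 3 Ctrl and 3 KO libraries at d6 (log axis) for 12 lower and 11 higher genes with the largest log2 fold change among called genes without overlap; each point is 1 library. Ctrl and KO points are apart for all 23 genes, and Crabp1 is the highest of the lower set at 3296 TPM on average in Ctrl.

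The labels call the d6 cells of both genotypes neural progenitors. The markers of that type were present in Ctrl and mostly much lower in KO, so the KO libraries are named here by genotype and day only. Of 28 measured neural progenitor and patterning factors, 25 were lower and 0 were higher, with a median log2 fold change of -3.11. Their summed level was 1262 to 1388 TPM in the Ctrl libraries and 85.1 to 111.4 TPM in the KO libraries, and the median of their mean levels was 30.7 TPM in Ctrl and 1.93 TPM in KO. Pax6, a paired-box gene of the neural tube, was at 33.8, 35.1 and 34.95 TPM in Ctrl and 0.934, 0.827 and 0.715 TPM in KO. Tshz1, a zinc finger gene of the trunk that is also on the RA list, was at 116, 106 and 111 TPM in Ctrl and 1.02, 1.04 and 1.09 TPM in KO. The libraries of a group were close together in both cases, and the groups were 106-fold apart for Tshz1. Zic1, a zinc finger gene of the dorsal neural tube, varied among Ctrl libraries at 29.6, 42.6 and 22.5 TPM and stood at 0.219, 0.397 and 0.139 TPM in KO. Irx1 and Irx3, Iroquois homeobox genes of neural territories, had log2 fold changes of -4.98 and -4.31. TALE homeobox cofactors of Hox proteins were lower, with -4.75 for Meis2 and -4.35 for Meis1. Genes of dorsal (Pax3 -3.50, Pax7 -3.28) and of ventral progenitors (Nkx6-1 -2.44) were lower as well. The 3 members that were not called, Hesx1, En2 and Nkx6-2, are genes of the forebrain, midbrain and ventral cord that stood at 3.095, 2.74 and 3.52 TPM in Ctrl.

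Sox1, an early gene of the neural plate, kept a measurable level in KO, with 62.3, 61.4 and 51.4 TPM in Ctrl and 12.8, 11.3 and 8.56 TPM in KO (log2 fold change -2.33 ± 0.16, adjusted p = 4.06e-09). Of 11 measured Sox genes, 9 were lower and 1 was higher. Sox2, which serves both pluripotent and neural cells, was the member without a called difference: it was at 569, 557 and 489 TPM in Ctrl and 585, 541 and 489 TPM in KO. The 2 groups overlapped throughout (log2 fold change 0.00, 95% interval -0.19 to 0.19). Sox15 was the higher member, at 1.37, and Sox3, a gene of neural progenitors, was lower at -1.48, with uneven Ctrl libraries of 188, 169 and 114 TPM.

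Neural stem cell genes followed the same direction, with 12 of 14 lower, 1 higher and a median of -2.23. The POU factor Pou3f2 was at 67.7, 57.97 and 54.9 TPM in Ctrl and 0.451, 0.205 and 0.107 TPM in KO, and Rfx4, a factor of neural tube patterning, was at 36.5, 38.3 and 31.8 TPM in Ctrl and 0.172, 0.0939 and 0.0655 TPM in KO. Both were present in every Ctrl library and close to absent in every KO library. Ptn, a secreted growth factor, had a log2 fold change of -3.98, Sox9 of -3.72 and the Notch target Hes5 of -2.83. The RNA-binding protein gene Msi1 was lower in part, at 185, 188 and 178 TPM in Ctrl and 35.6, 44.2 and 46.8 TPM in KO (log2 fold change -2.10 ± 0.11). The intermediate filament gene Nes differed less, at -0.90. Slc1a3, a glial glutamate transporter, was the higher member, at 4.19, 3.997 and 3.77 TPM in Ctrl and 14.2, 11.9 and 13.3 TPM in KO.

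Genes of neuronal commitment were split more. Of 27 proneural and neuronal genes, 19 were lower and 3 were higher, with a median of -1.12. Neurog1, a proneural bHLH gene, was at 39.1, 29.1 and 24.1 TPM in Ctrl and 1.14, 0.518 and 0.722 TPM in KO. The groups were apart, with a log2 fold change of -4.13 ± 0.19. Neither Neurod4, a bHLH gene of young neurons, nor Dcx, a microtubule-binding protein of migrating neurons, had a read in any KO library, while their Ctrl means were 8.62 and 5.298 TPM. Against a floor of 3 reads per library this puts them at least 32.0-fold and at least 115.5-fold lower. Tubb3, neuronal tubulin, was at 161, 191 and 165 TPM in Ctrl and 32.5, 34.2 and 44.9 TPM in KO. Neurod1 (-0.20), Crmp1 (-0.12) and Nefl (-0.31), genes of neurons and in part of endocrine cells, had no called difference. The higher members included Isl1, a homeobox gene of motor neurons that is not confined to them, at 1.14 and the neurofilament gene Ina at 0.56 log2 units.

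The Hox genes give cells their position along the body axis and are switched on by RA in the order of their place in each cluster, with low paralog numbers first. Of 25 measured Hox and Cdx genes, 22 were lower, 0 were higher and the median log2 fold change was -4.81. At d4, 23 of the 25 were already lower, with a median of -3.59. The HoxB cluster on chromosome 11 had 9 of 9 measured genes lower, and its summed level was 639 to 762 TPM in the Ctrl libraries and 3.65 to 7.33 TPM in the KO libraries. HoxA on chromosome 6 had 7 of 7 lower, at 354 to 388 against 4.21 to 10.3 TPM. HoxC (chromosome 15) had 2 of 3 lower at 135 to 151 against 2.52 to 4.06 TPM, and HoxD (chromosome 2) had 3 of 5 lower at 118 to 133 against 5.73 to 8.88 TPM. The summed level of each cluster was thus low in KO, and in these sums no KO library came near a Ctrl library.

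Within the clusters, Hoxb4 had the highest level in Ctrl, at 228, 234 and 201 TPM, and was at 2.46, 3.57 and 1.17 TPM in KO. Hoxb1, a hindbrain gene of the first paralog group that responds directly to RA, was at 122, 102 and 105 TPM in Ctrl and 0.879, 0.899 and 0.627 TPM in KO. For both genes the highest KO library was well under the lowest Ctrl library. Differences were as clear for paralog groups 5 to 8 of HoxB, with -6.42 for Hoxb5, -5.84 for Hoxb6, -4.04 for Hoxb7 and -6.39 for Hoxb8. HoxC was represented in the trunk range by Hoxc4 (-5.52) and Hoxc5 (-5.84). The members without a call were of high paralog number and low in Ctrl: Hoxd9 (3.99, 5.03 and 3.94 TPM in Ctrl against 1.62, 3.49 and 2.53 TPM in KO, -0.61 ± 0.20, adjusted p = 0.0118, but called without KO library 2, at -0.80), Hoxd13 (-0.29) and Hoxc13 (0.07). Cdx1, a caudal-type homeobox gene upstream of Hox genes, was at 13.1, 12.4 and 13.1 TPM in Ctrl and 2.16, 1.64 and 1.03 TPM in KO.

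**Figure D2:**
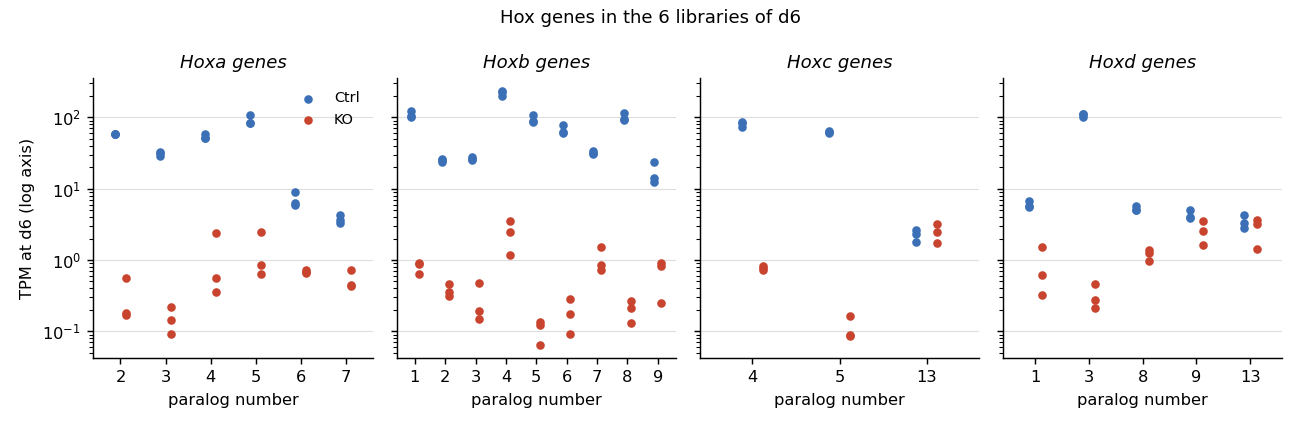
TPM at d6 (log axis) of measured Hox genes by paralog number, 1 panel per cluster, with a point for each Ctrl and KO library. The KO points of paralogs 1 to 8 sit below the Ctrl points in all 4 panels, and the points mix at Hoxc13 and Hoxd13.

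Of 24 genes of RA metabolism and response, 23 were lower and 1 was higher in KO, with a median of -2.69. Both genotypes had been given RA by d6. At d4, 19 of the 24 were already lower and 0 higher, with a median of -1.91, where 32.7% of all genes were lower. Their summed level was 7615 to 8698 TPM in Ctrl and 361 to 387 TPM in KO, and Crabp1 and Crabp2, a second RA-binding protein, held most of it in Ctrl but not in KO. Crabp2 was at 2561, 2675 and 2441 TPM in Ctrl and 40.2, 66.1 and 55.3 TPM in KO. Cyp26a1, the enzyme that degrades RA and a direct RA target, was at 472, 413 and 471 TPM in Ctrl and 16.7, 21.8 and 23.2 TPM in KO. This left it detectable in KO (log2 fold change -4.40 ± 0.16, adjusted p = 1.84e-12), whereas its relatives Cyp26b1 and Cyp26c1 had KO means of 0.633 and 0.799 TPM. Rarb, the RA receptor gene that is itself an RA target, was at 146, 132 and 147 TPM in Ctrl and 4.88, 6.13 and 7.999 TPM in KO. The other receptors differed less, with -1.33 for Rxra and -0.85 for Rara. Rarg was the higher member, at 51.6, 51.1 and 55.7 TPM in Ctrl and 98.02, 80.8 and 74.8 TPM in KO (0.66 ± 0.09, adjusted p = 1.38e-05). Of the transport and retinol-handling genes, the retinol uptake receptor Stra6 had -2.58 and the retinal reductase Dhrs3 -1.87. The nuclear receptor genes Nr2f1 (93.9, 95.4 and 85.1 TPM in Ctrl against 0.227, 0.371 and 0.173 TPM in KO) and Nr2f2 (-5.29) were close to absent in KO.

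Genes of the pluripotent state moved the other way, but not as a block. Of 23 general pluripotency genes, 16 were higher and 2 lower, with a median of 1.42 and a summed level of 2915 to 3011 TPM in Ctrl and 7022 to 7721 TPM in KO. Pou5f1, which encodes Oct4, was at 114, 93.05 and 95.6 TPM in Ctrl and 718, 561 and 678 TPM in KO, 6.47-fold higher on the means (log2 fold change 2.68 ± 0.10, adjusted p = 3.81e-12). Nanog was at 102, 134 and 101 TPM in Ctrl and 332, 281 and 286 TPM in KO. The groups were apart for both, and the KO libraries of Nanog were 2.67-fold above Ctrl on the means. Utf1, a chromatin protein of stem cells, reached 1208, 1564 and 1731 TPM in KO from 193, 172 and 160.4 TPM in Ctrl, and Fgf4, an autocrine growth factor of stem cells, was at 14.3, 16.5 and 14.5 TPM in Ctrl and 227, 144 and 152 TPM in KO. L1td1, an RNA-binding protein of stem cells, had 2.64 log2 units, Tcea3, an elongation factor, 2.48, and Zscan10, a zinc finger factor, 2.13. Lin28a, an RNA-binding protein, was at 484, 541 and 557 TPM in Ctrl and 501, 526 and 560.2 TPM in KO, with no called difference. The 2 lower members were Lin28b at -0.97 and Mycn at -0.65.

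The naive pluripotency genes, which mark cells in 2i + LIF, gave no common direction. Of 16 measured, 6 were higher and 3 lower, the median was -0.15 and its sign changed with the scaling. Klf4 was at 10.7, 11.7 and 10.7 TPM in Ctrl and 6.43, 6.103 and 4.89 TPM in KO, below Ctrl in all 3 libraries (-0.83 ± 0.13, adjusted p = 5.07e-05), and Socs3, a target of LIF signalling, was lower too (-0.93). Zfp42 (Rex1) was at 99.7, 100.2 and 86.1 TPM in Ctrl and 146, 135 and 137 TPM in KO. Esrrb, an orphan nuclear receptor of naive cells, was at 22.7, 26.1 and 19.9 TPM in Ctrl and 35.4, 37.7 and 37.2 TPM in KO, and Nr0b1, another, was at 10.9, 15.5 and 12.7 TPM in Ctrl and 28.6, 24.2 and 26.02 TPM in KO. These higher members differed by at most 0.99 log2 units, which was the value of Tdh. Klf2 (-0.12), Klf5 (-0.20), Tfcp2l1 (-0.12), Tbx3 (-0.35) and Prdm14 (-0.41) had no called difference.

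Genes of the postimplantation epiblast were higher in 10 of 15 cases and lower in 3, with a median of 1.31. Otx2 was at 9.13, 8.19 and 10.1 TPM in Ctrl and 166, 153 and 164 TPM in KO, 17.6-fold higher on the means (log2 fold change 4.00 ± 0.16, adjusted p = 4.38e-12). Dnmt3b, a de novo DNA methyltransferase, was at 51.6, 54.7 and 51.9 TPM in Ctrl and 484, 387 and 474 TPM in KO. Pou3f1 (Oct6), a POU factor of the epiblast, was at 17.6, 13.5 and 13.5 TPM in Ctrl and 137, 123 and 133 TPM in KO. The KO libraries were close to each other and far above Ctrl for all 3 genes. Zic2 and Zic5, zinc finger genes of the epiblast and neural plate, had 1.31 and 1.66 log2 units, in contrast to Zic1. Wnt8a was higher with uneven replicates, at 11.5, 10.3 and 12.8 TPM in Ctrl and 92.9, 33.6 and 34.2 TPM in KO, and KO library 1 was far above the other 2. Car14 (-1.62), Sox3 (-1.48) and Sall2 (-1.09) were the lower members, and Fgf15 (0.46 ± 0.26) had no called difference at d6.

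Zeb2 is named for binding E-boxes, and epithelial genes are its known targets in EMT. Of 31 measured epithelial genes, 21 were higher and 2 lower in KO, with a median of 0.69. Cdh1, which encodes E-cadherin, was at 194, 186 and 222 TPM in Ctrl and 503, 563 and 617 TPM in KO, 2.79-fold higher on the means (log2 fold change 1.48 ± 0.08, adjusted p = 1.19e-10). Epcam, an epithelial adhesion molecule, was at 279, 261 and 303 TPM in Ctrl and 813, 810.1 and 904 TPM in KO. Rab25, a small GTPase of epithelial recycling endosomes, was at 4.65, 4.51 and 3.34 TPM in Ctrl and 27.01, 25.8 and 32.2 TPM in KO and had the largest log2 fold change of the list, 2.51 ± 0.17. All KO libraries were above all Ctrl libraries for the 3 genes. Ap1m2, an adaptor subunit of basolateral sorting (31.2, 28.1 and 37.8 TPM in Ctrl against 89.6, 119 and 140.3 TPM in KO), and Crb3, an apical polarity protein (14.8, 14.7 and 23.2 TPM in Ctrl against 49.7, 62.9 and 68.96 TPM in KO), were higher as well. So were the regulators Grhl2 (1.71), Esrp1 (1.63) and Ovol2 (1.59). The keratin genes Krt8 (-0.08) and Krt18 (0.48) had no called difference, and Krt19 (-1.32) and the desmosomal gene Dsp (-1.50) were lower.

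The sequences before the start sites of 4 of these genes are shown because they hold the letters that Zeb2 is known to bind. Each is the 250 bases before the start of the RefSeq gene, on the strand of the gene, 5′ to 3′, GRCm38.p6. Capitals mark CACCT, or CACCTG, on either strand, which reads AGGTG or CAGGTG on the other. Rab25 lies at chr3:88548280-88548529 (minus strand), Ap1m2 at chr9:21312334-21312583 (minus strand), Crb3 at chr17:57061951-57062200 (plus strand) and Epcam at chr17:87635729-87635978 (plus strand).
Rab25: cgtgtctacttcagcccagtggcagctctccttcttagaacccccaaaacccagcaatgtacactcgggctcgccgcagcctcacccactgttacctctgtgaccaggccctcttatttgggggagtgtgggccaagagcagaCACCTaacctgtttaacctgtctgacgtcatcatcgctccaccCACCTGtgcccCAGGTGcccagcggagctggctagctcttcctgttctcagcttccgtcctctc
Ap1m2: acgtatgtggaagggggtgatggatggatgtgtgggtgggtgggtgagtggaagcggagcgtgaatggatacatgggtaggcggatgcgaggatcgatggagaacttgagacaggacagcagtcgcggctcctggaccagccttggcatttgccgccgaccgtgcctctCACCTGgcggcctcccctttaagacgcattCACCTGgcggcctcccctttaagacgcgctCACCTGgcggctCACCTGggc
Crb3: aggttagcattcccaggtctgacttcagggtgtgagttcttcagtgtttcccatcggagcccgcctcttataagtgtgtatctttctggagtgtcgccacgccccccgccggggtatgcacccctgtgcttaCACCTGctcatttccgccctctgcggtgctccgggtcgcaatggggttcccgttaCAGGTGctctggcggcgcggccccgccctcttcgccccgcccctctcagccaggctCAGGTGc
Epcam: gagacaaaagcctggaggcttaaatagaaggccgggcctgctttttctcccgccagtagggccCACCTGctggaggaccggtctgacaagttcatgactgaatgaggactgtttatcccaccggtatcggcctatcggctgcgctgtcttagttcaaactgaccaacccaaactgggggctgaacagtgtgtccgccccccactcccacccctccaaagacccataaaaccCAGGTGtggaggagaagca
CACCTG was found 2 times before Rab25, 4 times before Ap1m2, 3 times before Crb3 and 2 times before Epcam. Since CACCTG contains CACCT, each such match counts for both motifs.

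The same letters were searched on both strands in a longer window of 300 bases, the 250 before and the 50 after the start, which was at hand for 7219 of the 10965 genes. CACCTG was present in 18.4% of them, in 27.6% of the higher DEGs (90 of 326), in 18.7% of the lower DEGs (158 of 843) and in 17.9% of the genes that were not DEGs. CACCT was present in 49.6%, 58.6%, 48.5% and 49.2% of these sets. These shares include the windows that held CACCTG, so they are not a separate count of the shorter motif. A CACCTG with a second CACCT within 45 bases was present in 3.84% of all windows, in 8.90% of those of higher DEGs (29 windows, Wilson 95% interval 6.27% to 12.5%, counting error only) and in 4.03% of those of lower DEGs. Of 19 epithelial genes with such a window, 15 held CACCTG and 8 held the pair, while none of the 14 Hox and Cdx genes held CACCTG and 5 held CACCT. The epithelial counts were not split by call. Holders of the pair included the higher genes Rab25, Ap1m2 and Crb3, but also Dsp, which was lower, and Lsr (0.06), which was not called. The pair of Crb3 takes in bases after the start, which are not printed above. Epcam, also higher, held no pair. The higher genes Ovol2, Ocln and Cldn7 held no CACCTG in the 250 bases before the start. A match is a description of the letters and does not show that Zeb2 is bound there.

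The mesenchymal genes of EMT were lower in 9 of 13 cases and higher in 1, with a median of -1.07. Cdh2, which encodes N-cadherin of neural and mesenchymal cells, was at 82.9, 85.6 and 87.3 TPM in Ctrl and 1.96, 1.66 and 2.27 TPM in KO, 43.4-fold lower on the means (log2 fold change -4.87 ± 0.10, adjusted p = 4.07e-15). Vim, which encodes vimentin, was at 225, 204 and 199 TPM in Ctrl and 31.3, 28.8 and 24.6 TPM in KO. Zeb1, the paralog of Zeb2, was at 14.2, 16.4 and 15.8 TPM in Ctrl and 3.28, 2.76 and 2.01 TPM in KO, so that KO had less of both family members (-2.17 ± 0.13). The other EMT factors differed less clearly. Snai2 had -1.40 log2 units and Snai1 -1.03 ± 0.27 (adjusted p = 0.003298), a call that was lost without Ctrl library 1 or 3 or KO library 2 or 3 (adjusted p 0.0107 to 0.0179). Twist1, at -0.78 ± 0.27, missed the threshold (adjusted p = 0.0191) although its KO libraries, at 20.1, 19.14 and 18.2 TPM, lay below those of Ctrl, at 36.3, 33.2 and 31.4 TPM. Snai3 was the higher member, at 1.28. The protease gene Mmp2 (-0.06) had no called difference.

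Most signalling pathways held both higher and lower genes, and of all genes 17.9% were called higher and 34.3% lower. In the Nodal pathway, which holds the epiblast pluripotent and against neural fate, several ligand, coreceptor and feedback genes were higher and several receptors and Smads lower, giving 7 higher and 6 lower of 16 with a median of 0.11. Nodal was at 56.8, 53.4 and 46.3 TPM in Ctrl and 182, 171 and 184 TPM in KO. Its targets and antagonists Lefty1, at 97.2, 74.8 and 77.1 TPM in Ctrl against 415, 359 and 377 TPM in KO, and Lefty2, at 21.4, 18.8 and 17.7 TPM in Ctrl against 123, 124 and 121 TPM in KO, were higher too, with the groups apart in every case. Foxh1, the DNA-binding partner of Smad2, had 1.44 and the ligand Gdf3 1.63. Smad2 (-0.82), Smad3 (-0.84) and the receptors Acvr2a (-1.27) and Acvr2b (-0.78) were lower, and so was the activin antagonist Fst (-1.77). In the BMP pathway 9 of 13 genes were lower and 2 higher. Id3, a BMP target, was at 339, 311 and 298 TPM in Ctrl and 64.7, 68.3 and 66.8 TPM in KO, and Id1 (-0.19) had no called difference. Bmp2 had -2.33 and Bmp7 -1.40, and the inhibitory Smad7 was higher at 1.18.

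In the FGF pathway, 9 of 22 genes were higher and 7 lower. The higher members were the ligands Fgf4, Fgf5, Fgf8 and Fgf17, Etv5 and 4 feedback inhibitors, and quantile normalization gave 4 lower genes. Fgf8 went from 0.517, 1.34 and 0.809 TPM in Ctrl to 14.9, 13.4 and 12.5 TPM in KO, and Fgf4 and Fgf5 are given above. Etv5, a transcription factor induced by FGF, was at 22.5, 22.3 and 21.9 TPM in Ctrl and 136, 134 and 151 TPM in KO (log2 fold change 2.61 ± 0.06, adjusted p = 1.97e-14). Spry1 (1.78), Spry2 (1.55), Spry4 (1.22) and Dusp6 (0.99), inhibitors that FGF signalling induces, were higher. Receptors were among the lower members, with Fgfr3 at 19.6, 19.6 and 19.2 TPM in Ctrl against 1.12, 1.87 and 1.58 TPM in KO, Fgfr2 at 43.5, 44.7 and 44.2 TPM in Ctrl against 5.79, 7.095 and 6.24 TPM in KO and Fgfr4 at -0.77 log2 units. The ligands Fgf3 (-2.16), of the hindbrain, and Fgf10 (-1.20) were lower too.

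Of 31 Wnt pathway genes 17 were lower and 7 higher. The secreted inhibitor Sfrp5 was at 201, 187 and 198 TPM in Ctrl and 2.82, 3.47 and 1.26 TPM in KO, and the dorsal neural tube ligand Wnt1 was at 24.3, 27.6 and 22.8 TPM in Ctrl and 0.132, 0.1204 and 0.252 TPM in KO. Both were close to absent in KO. Wnt3a had -3.45 and the receptor gene Fzd3 -2.42, while the nuclear factors Lef1 (1.18) and Tcf7 (0.94) and the agonist Rspo1 (2.04) were higher. The feedback target Axin2 was at -0.84. Of 12 Hedgehog genes 10 were lower and 1 higher. The coreceptors Gas1, at 220.0, 218 and 178 TPM in Ctrl against 23.3, 26.98 and 25.3 TPM in KO, Boc (-2.85) and Cdon (-1.73) and the factors Gli3 (-2.12) and Gli1 (-1.35) were lower. Of 19 Notch genes 8 were lower and 3 higher, beside 34.3% and 17.9% of all genes. Lfng, which modifies Notch receptors, was at 37.4, 38.02 and 31.4 TPM in Ctrl and 4.17, 4.66 and 2.89 TPM in KO, the ligand gene Dll1 had -1.82, and Hes6, which counteracts Notch output, was at 21.9, 20.2 and 18.3 TPM in Ctrl against 94.5, 95.1 and 94.8 TPM in KO.

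**Figure D3:**
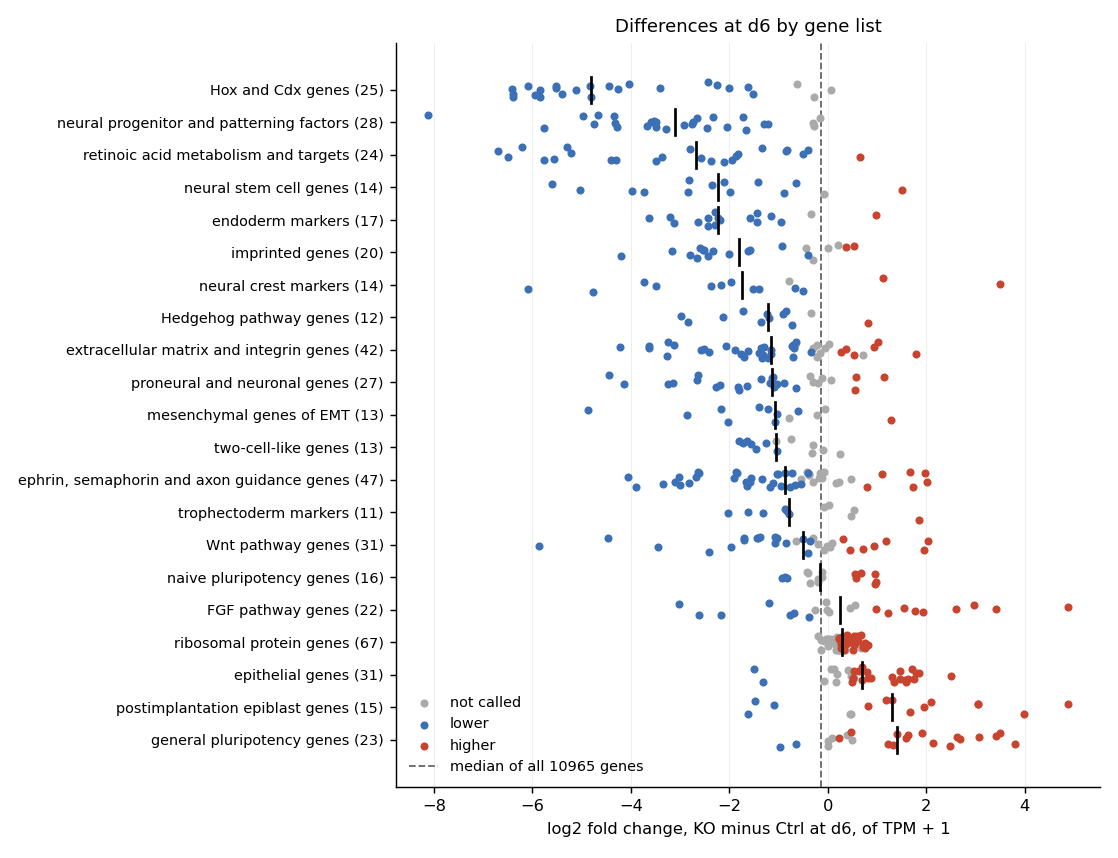
Log2 fold change (KO over Ctrl at d6) of each measured gene in 21 lists, with a bar at the median of each list and a dashed line at the median of all 10965 genes, -0.14. Hox and Cdx, patterning and RA genes lie to the left, with medians of -4.81, -3.11 and -2.69, and general pluripotency and epiblast genes to the right, with 1.42 and 1.31.

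The enzymes of DNA methylation were divided. Of 17 genes, 6 were higher and 8 lower, beside 17.9% and 34.3% of all genes. The de novo methyltransferases were higher: beside Dnmt3b, Dnmt3l, its catalytically inactive partner, was at 65.2, 43.3 and 58.3 TPM in Ctrl and 209, 155 and 153 TPM in KO, and Dnmt3a was at 26.3, 25.8 and 27.9 TPM in Ctrl and 63.03, 37.6 and 46.2 TPM in KO. Dnmt1, which copies methylation after replication, was lower at 387, 419.8 and 416 TPM in Ctrl and 260.3, 257 and 249 TPM in KO (-0.67 ± 0.05, adjusted p = 2.04e-08). The Tet genes, whose enzymes oxidise methylcytosine, took different directions. Tet1 was at 17.3, 17.5 and 18.7 TPM in Ctrl and 55.1, 37.6 and 38.2 TPM in KO and was higher, Tet3 was at 29.2, 30.02 and 29.8 TPM in Ctrl and 9.14, 8.29 and 9.56 TPM in KO and was lower, and Tet2, at 6.65, 6.39 and 6.87 TPM in Ctrl and 9.64, 3.77 and 2.68 TPM in KO, overlapped between the groups (-0.42 ± 0.25, adjusted p = 0.162). Without KO library 1, Tet2 was lower as well, at -0.86 log2 units (adjusted p = 2.44e-05). Of the genes for methyl-CpG binding proteins, Mbd1 (-0.98) and Mbd2 (-0.94) were lower, and Mbd3 (-0.21) had no called difference. No methylation was measured in these libraries.

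Imprinted genes, expressed from 1 parental allele, were lower in 14 of 20 cases and higher in 2, with a median of -1.81 and a summed level of 3237 to 3462 TPM in Ctrl and 975 to 1136 TPM in KO. The 2 higher members, Phlda2 (0.53), a gene of placental growth, and Rian (0.38), a noncoding RNA, lost their calls in a fit without any 1 of Ctrl libraries 1 to 3 or KO libraries 1 and 2 and with the replicate block. The noncoding RNA gene H19 was at 901, 995 and 1077 TPM in Ctrl and 154, 191 and 148 TPM in KO, and its neighbour Igf2, a fetal growth factor, was at 146, 173 and 185 TPM in Ctrl and 7.33, 8.23 and 9.11 TPM in KO. Both genes of the locus were thus lower in every KO library, 6.02-fold and 20.4-fold on the means. H19 was already lower in KO at d0, at 7.37 TPM in Ctrl and 0.420 TPM in KO on average. Its log2 fold change was -2.55 at d0 (adjusted p = 9.98e-10), -1.39 at d4 and -2.59 at d6. The change of its difference from d0 to d6 was not called (-0.04, adjusted p = 0.877). Peg3 (-2.44), Grb10 (-2.33) and Mest (-2.54), genes of growth control, were lower. Of the cluster on chromosome 12, Dlk1 was lower (-2.66), whereas Meg3 had no called difference (-0.29) and Rian had the higher value given above. Meg3 was uneven in KO, at 74.6, 74.8 and 37.6 TPM.

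Extracellular matrix and integrin genes were lower in 28 of 42 cases and higher in 6. Vcan, a proteoglycan through which neural crest cells move, was at 43.5, 54.6 and 55.6 TPM in Ctrl and 2.44, 1.38 and 1.59 TPM in KO. Col4a1, a collagen of the basement membrane, was at 393, 519.7 and 637 TPM in Ctrl and 49.2, 68.3 and 54.7 TPM in KO, and Lama1, a laminin chain there, was at 128, 163 and 196 TPM in Ctrl against 10.8, 13.6 and 11.8 TPM in KO. Among the Ctrl libraries, number 3 was highest for both genes, and the KO libraries were lower than all of them. The higher members included Lama3 (1.79), a chain of the epithelial laminin. Of 47 ephrin, semaphorin and axon guidance genes, 29 were lower and 6 higher. Plxna2, a semaphorin receptor, was at 35.5, 39.2 and 39.8 TPM in Ctrl and 1.14, 1.44 and 1.47 TPM in KO, Nrp1 had -3.89 and the netrin receptor gene Unc5a -3.34. The other netrin receptor gene Unc5b was higher (31.5, 27.1 and 35.5 TPM in Ctrl against 112, 123 and 143 TPM in KO), as were Epha1 (2.02) and Epha2 (1.10).

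Markers of other cell types that EBs can hold were read in the same way. Of 17 endoderm markers 15 were lower and 1 higher, with a summed level of 1245 to 1738 TPM in Ctrl and 925 to 1170 TPM in KO. Afp, a yolk sac and liver protein, was at 21.6, 14.4 and 38.6 TPM in Ctrl and 1.49, 1.803 and 1.48 TPM in KO, and Apoa1, an apolipoprotein, was at 66.6, 55.2 and 112 TPM in Ctrl and 9.24, 18.7 and 7.87 TPM in KO. Ctrl library 3 was the highest in both, by a wide margin, and the groups remained apart. Apoe, which many cells make, was the higher member (0.97). Of 10 mesoderm, cardiac and blood vessel markers, 5 were lower, led by Meox1 at 182, 129 and 149 TPM in Ctrl against 0.848, 0.643 and 0.672 TPM in KO, and 3 were higher (3 lower and 3 higher under quantile normalization, 4 and 1 in the fit to d6 alone), led by Eomes at 2.13, 1.39 and 2.48 TPM in Ctrl against 12.6, 9.34 and 7.85 TPM in KO. Of 11 trophectoderm markers 6 were lower and 1, Eomes again, was higher. Of 14 neural crest markers 11 were lower and 2 higher: Ednrb was at 74.9, 88.2 and 82.5 TPM in Ctrl and 0.2201, 0.2001 and 0.209 TPM in KO, and the higher members were Foxd3 (3.50) and Erbb3 (1.12). Of 14 germ cell markers 5 were higher and 6 lower, with 2 higher in the fit to d6 alone or without KO library 2 and 3 with the replicate block or without KO library 3, and of 5 fibroblast markers 4 were lower and Thy1, a surface protein of fibroblasts and neurons, was higher (2.47). The part that the makeup of the EBs has in the differences above was not tested.

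Replication and mitosis genes differed little, while the D-type cyclins Ccnd1 and Ccnd2 differed more. Of 20 replication and mitosis genes 5 were higher and 5 lower, with a median of 0.02, and the largest difference was that of Rrm1, a subunit of ribonucleotide reductase (-0.55). The median changed sign under quantile scaling and without KO library 3. Median-ratio scaling gave 10 higher and 2 lower, voom 8 and 3, the fit to d6 alone 2 and 3, and the replicate block or a fit without Ctrl library 1 gave 3 and 3. Without Ctrl library 2 there were 3 and 4, and without KO library 1 there were 3 and 5. Ccnd2, a D-type cyclin, was at 192, 204 and 203 TPM in Ctrl and 10.2, 5.15 and 3.95 TPM in KO, whereas Ccnd1 was at 68.5, 74.2 and 66.4 TPM in Ctrl and 157, 136 and 164 TPM in KO. The cyclins thus differed in opposite directions (-4.84 ± 0.24 and 1.11 ± 0.13). Of 67 ribosomal protein genes 36 were higher and 0 lower, with a median of 0.30, but 20 were higher in a fit to the libraries of d6 alone, and since many have pseudogene copies single values are uncertain. Of 19 glycolysis genes 5 were higher and 3 lower, beside 17.9% and 34.3% of all genes. Under median-ratio scaling and under quantile normalization 9 were higher, and with voom 10 were. Of 13 stress response genes 5 were higher and 0 lower, and the immediate early genes Fos (-1.22) and Egr1 (-1.80) missed the threshold with adjusted p of 0.0128 and 0.0169, which they passed in a fit to the libraries of d6 alone.

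To see what set d6 apart from d4, the KO-Ctrl difference at d6 was tested against that at d4, which the labels call multipotent progenitors. Relative to d4, the difference had moved toward higher values in KO at 778 genes (7.10%) and toward lower values in KO at 690 (6.29%). Of the 511 higher DEGs of d6, 174 (34.1%) were also higher DEGs at d4, where 239 genes (2.18%) were higher DEGs and these made up 72.8% of them, and 4 were DEGs in the opposite direction. Of the 1207 lower DEGs, 561 (46.5%) were also lower DEGs at d4, where 839 genes (7.65%) were lower and these made up 66.9% of them, and 3 were opposite. At d0 in 2i + LIF, where 196 genes (1.79%) were higher and 308 (2.81%) lower DEGs, 15 (2.94%) of the higher and 55 (4.56%) of the lower DEGs of d6 had the same direction, and 22 and 49 the opposite one. Relative to d0, the KO-Ctrl difference had moved toward higher values in KO at 1947 genes (17.8%) and toward lower values at 2842 (25.9%). At d0 the median log2 fold changes of chromosomes 8 and 12 were 0.33 and 0.36. With chromosome medians removed, 1677 and 2487 of these genes kept their calls. The median log2 fold change of the higher DEGs was 0.76 at d4 and 1.42 at d6, and that of the lower DEGs was -0.94 and -1.46, where d6 values chose the genes and are described only. The difference had grown since d4 at 218 (42.7%) of the higher and at 439 (36.4%) of the lower DEGs, and had shrunk at 4 and 33. The d6 values that chose these genes also enter this change, so the choice favours growth and these counts are described only.

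**Figure D4:**
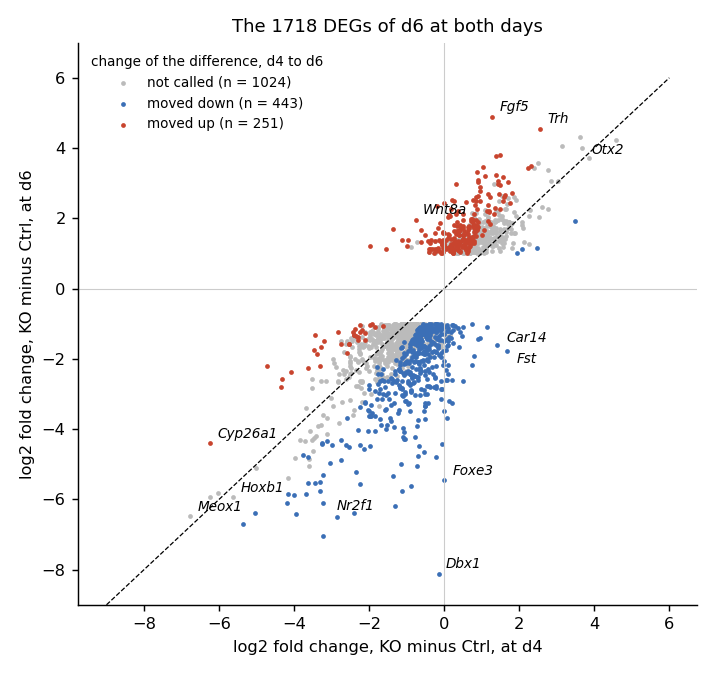
Log2 fold change (KO over Ctrl) at d4 and at d6 of the 1718 DEGs of d6, 1 point per gene, with the diagonal of equal values. Most points lie on the same side of 0 at both days, while Dbx1 lies at -0.15 at d4 and -8.11 at d6 and Fgf5 at 1.28 and 4.89.

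Genes differed in when the gap opened. Dbx1 had 0.664 TPM in Ctrl and 0.483 TPM in KO at d4, so the gap of d6 was not there yet (difference between days -7.97 log2 units, adjusted p = 5.34e-11). The other largest shifts toward lower values in KO were those of Foxe3, a forkhead gene, Nr2f1, Pou3f2 and the neural Hes gene Hes3. They were -5.46, -4.89, -4.74 and -4.63, in that order. For Hoxb1 the gap was already present at d4, with 77.3 TPM in Ctrl and 0.589 TPM in KO on average, and the shift to d6 of -0.32 was not called. Meox1 (0.30) was alike in this. The gap of Cyp26a1 narrowed: its log2 fold change was -6.24 at d4 and -4.40 at d6 (difference 1.84, adjusted p = 2.06e-05). The labels do not say whether the d4 cells were taken before or after RA was added.

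The shift toward higher values in KO was largest for Fgf5 (difference 3.61, adjusted p = 2.80e-07). Its log2 fold change was 1.28 at d4 and 4.89 at d6. Next came the interferon-inducible GTPase Irgm1 (3.20), the synaptotagmin Syt13 (3.07), Gbp7 (3.01) and Wnt8a (2.72). Gbp7 was lower in KO at d4 (-3.38) and had no called difference at d6 (-0.37), so its shift was the closing of a gap. Irgm1 (-1.97 at d4 and 1.23 at d6) and Syt13 (-1.36 and 1.71) were called lower in KO at d4 and higher at d6. In Ctrl, Fgf5 went from 6.903 TPM at d4 to 2.44 TPM at d6 on average, and in KO from 18.3 to 99.02 TPM. Pou5f1 went from 453 to 101 TPM in Ctrl and from 1015 to 652 TPM in KO, and its log2 fold change was 1.17 at d4 and 2.68 at d6. Otx2 and Dnmt3b had the gap of d6 already at d4, with 3.68 and 3.05 log2 units. Fgf15 showed the reverse, with 1.904 TPM in Ctrl and 45.5 TPM in KO at d4 and overlapping libraries at d6 (difference -3.52, adjusted p = 3.35e-06). Afp, at 0.211 and 0.326 TPM at d4, differed at d6 alone of these 2 days. Over all genes, 99 were called in opposite directions at d4 and d6 with a called difference between the days, of which 83 were lower in KO at d4 and higher at d6.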

How the data were processed

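Total RNA of each EB culture was sequenced by the study as single reads. Per the submitters' notes and methods, the authors aligned the reads to GRCm38 with TopHat2 2.0.13, counted them per gene with featureCounts 1.4.6 and deposited a filtered table of TPM values (reads scaled by gene length and library size) for 18 libraries. Its deposited score columns are 3 columns that belong to no library and were not used. The 11046 entries held 10965 genes, of which the first entry of each was kept. Every TPM value was a whole number of reads after 1 added read (largest deviation 3.35e-10 reads), so a gene without reads has a TPM above 0, and precision is limited by the 9699948 to 13352397 reads per library. TPM is relative within a library: a rise of some genes lowers the others.

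TPM were set on log2(TPM + 1) and fitted with limma-trend (limma 3.58.1, R 4.3.3) as 6 group means (genotype by day), with Benjamini-Hochberg adjustment over 10965 genes. The scripts were tested on simulated data. Genes were named by rank (Zeb2, the 12 largest changes in each direction, up to 8 per list, the 5 largest shifts from d4 in each direction, the 5 highest levels in each direction and the genes the study names), and other list members were picked with their values in view. Some genes that this rule names are not reported here. The members and lists were chosen with earlier results of these data known. A list's count is read against the 34.3% of all genes called lower and the 17.9% called higher. Promoter windows are RefSeq sequence of GRCm38.p6. Alternatives were another pseudocount (0.1 or 5), a mean TPM of at least 10, other scalings, voom on the reads, a replicate block and leaving out each library.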

Additional observations from a re-analysis of the deposited data

Results flagged for a closer look

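The results named here had a KO-Ctrl difference at d6 that differed from that at d4 by the test of the difference itself. No explanation was tested. Over all genes this held for 778 that moved toward higher values in KO and 690 that moved toward lower values in KO. Either move can widen or close a gap. Each value below is the log2 fold change at d6 minus that at d4.

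The largest moves toward lower values in KO were those of Dbx1 (-7.97), Foxe3 (-5.46), Nr2f1 (-4.89), Pou3f2 (-4.74) and Hes3 (-4.63). The largest toward higher values in KO were those of Fgf5 (3.61), Irgm1 (3.20), Syt13 (3.07), Gbp7 (3.01) and Wnt8a (2.72). Irgm1 and Syt13 were called lower in KO at d4 and higher at d6. Gbp7 was called lower in KO at d4 (-3.38) and was not called at d6 (-0.37). Wnt8a had a log2 fold change of -0.76 at d4, which was not called, and of 1.96 at d6, and its KO library 1 stood at 92.9 TPM against 33.6 and 34.2 TPM in the others.

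Among the other genes named, those called in opposite directions at d4 and d6 were Sox15 (2.50), Spry4 (2.21) and Dppa3 (1.98), lower in KO at d4 and higher at d6, and Fst (-3.45), Car14 (-3.02), Nes (-1.43), Mycn (-1.32) and Rrm2 (-0.61), higher in KO at d4 and lower at d6. Dppa3, a gene of naive and germ cells, had a log2 fold change of -1.40 at d4 and 0.58 at d6. The call of Dppa3 at d6 was lost without Ctrl library 1 or KO library 2 or 3, at 0.43 to 0.55 log2 units.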

How the results depend on the processing

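The counts of called genes and of differences between d0 and d6 stayed within 1.5 times their value under every alternative run, and Zeb2 remained called, at -1.16 (pseudocount 5) to -3.41 (voom). The 511 higher DEGs became 329 at a mean TPM of at least 10, 331 with pseudocount 5, 946 under quantile normalization and 1337 at a fold limit of 0.5 log2 units. The 1207 lower DEGs became 614, 710 and 2775 at that TPM minimum, pseudocount and fold limit. Leaving out 1 library gave 498 to 547 higher and 1135 to 1251 lower DEGs. Higher DEGs were 29.7% of all DEGs as deposited, 42.1% after median-ratio scaling, 52.7% after quantile normalization and 36.9% with voom. The 690 genes whose difference moved toward lower values in KO since d4 became 453 at a mean TPM of at least 10. The range of the chromosome medians, 0.134 log2 units, was 0.0951 with chromosome medians removed, 0.111 at that TPM minimum, 0.115 with pseudocount 5, 0.186 under quantile normalization and 0.120 to 0.148 without 1 library. The share of higher DEGs with both motifs, 8.90%, was 16.6% without a limit on the gap. Over all windows the share rose as well, from 3.84% to 9.05%, and that of lower DEGs rose from 4.03% to 8.66%. Tyms, which was lower by a small margin, reversed under quantile normalization (0.0154). Of 300 genes named and called, 23 lost the call under some alternative, 16 of them without 1 library, and 7 of 28 not called gained it. The cause was not tested.

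The replicate numbers of Ctrl and KO were checked for pairing at d6. Deviations from the group means correlated at 0.180, 0.214 and 0.018 between libraries of the same number. Between libraries of different numbers the correlations were -0.208 to 0.056. This does not decide whether the libraries are paired, and the main fit read the numbers as names. Ctrl libraries 1 and 2 correlated best with their own number and Ctrl library 3 did not. With the replicate block there were 515 higher and 1209 lower DEGs, 1761 genes called higher and 3468 called lower. The differences from d4 were then called at 552 genes toward higher and at 498 toward lower values in KO.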

Other observations

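Genes of the 2-cell-like state, which a small share of cultured stem cells enters, were lower in 7 of 13 cases and higher in 0. Zscan4c, a telomere-associated zinc finger gene of that state, was at 17.9, 16.5 and 17.4 TPM in Ctrl and 10.1, 2.49 and 2.74 TPM in KO, and KO library 1 was well above the other 2. Zscan4d (16.98, 5.597 and 4.94 TPM in KO) and Tmem92 (9.87, 4.39 and 2.397 TPM) had the same order of KO libraries. The Zscan4 genes are near-identical copies, so their single values are uncertain.

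By chromosome, the median log2 fold change at d6 lay between -0.20 (chromosome 19) and -0.07 (chromosome 15), leaving out Y and the mitochondrial genome with under 10 genes each. Chromosomes 8 and 12 had medians of -0.15 and -0.18 at d6, in contrast to 0.33 and 0.36 in the same comparison at d0.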
